A study of Mus musculus with 2 samples.

Results

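The miR-34 and miR-449 family is a set of 6 microRNA (miRNA) genes in the mouse: Mir34a, Mir34b, Mir34c, Mir449a, Mir449b and Mir449c. They were chosen by name, and all 6 were found among the 2202 miRNA genes of the count tables. Small RNA was sequenced from adrenal glands of male B6CASTF1/J mice on postnatal day 4, with 2 libraries in 1 group and no other tissue, treatment or genotype. Replicate 1 came from the male numbered 3 and replicate 2 from the male numbered 4. Both carried the same donor label, so they were taken as separate animals from these numbers alone. The labels state no comparison, and each animal gave 1 library, so a difference between the libraries cannot be assigned to animal, dissection or library preparation.

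A miRNA is cut from a hairpin precursor and pairs with messenger RNAs mainly through its seed, bases 2 to 8 counted from the 5′ end. MiRNAs with the same seed can act on overlapping sets of messages. Mir34a, Mir34b and Mir34c are known as direct transcriptional targets of the tumour suppressor p53 and restrain the cell cycle. Mir34b, Mir34c and the 3 Mir449 genes are best known from cells with many motile cilia and from male germ cells, where the loci partly stand in for one another. The adrenal gland, a steroid-producing cortex around a medulla of chromaffin cells, is not a tissue for which the family is known.

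The sequences that define the family are those of the 5p arms, shown here with the seed in capitals (RefSeq, build GRCm38.p6, 5′ to 3′). They lie at chr4:150068473-150068494 on the plus strand, chr9:51103610-51103632 on the minus strand, and chr13:113037549-113037570 and chr13:113036008-113036028 on the plus strand, in the order listed.
miR-34a-5p: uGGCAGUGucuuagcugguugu
miR-34b-5p: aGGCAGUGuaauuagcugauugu
miR-449a-5p: uGGCAGUGuauuguuagcuggu
miR-449c-5p: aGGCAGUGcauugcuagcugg

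All 4 of these had the letters GGCAGUG at bases 2 to 8, and among the 1738 mature miRNAs of the RefSeq table no other had them there. Entries for miR-34c-5p and for Mir449b were not in that table. Outside the seed the forms differed more. Compared base by base from the 5′ end, miR-449a-5p and miR-449c-5p matched at 18 of 21 positions, miR-34a-5p and miR-449a-5p at 15 of 22, and miR-34a-5p and miR-34b-5p at 11 of 22. Allowing insertions and deletions, the edit distance of miR-34a-5p and miR-34b-5p was 4.

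The 3p arms, cut from the other side of each hairpin, do not share that seed, and they show how the genes group (seed in capitals). They lie at chr4:150068517-150068537, chr9:51103574-51103595, chr9:51103044-51103065, chr13:113037589-113037610 and chr13:113036049-113036070.
miR-34a-3p: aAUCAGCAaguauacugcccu
miR-34b-3p: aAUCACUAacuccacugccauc
miR-34c-3p: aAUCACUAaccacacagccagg
miR-449a-3p: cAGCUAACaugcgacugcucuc
miR-449c-3p: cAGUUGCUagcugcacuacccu

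Only miR-34b-3p and miR-34c-3p shared a 3p seed, AUCACUA, which no other mature form in the table had at bases 2 to 8. The pair matched at 17 of 22 positions. The other 3 arms each had a seed found once in the table.

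A deposited count belongs to a whole hairpin gene, so the arms were summed and neither arm has a level of its own. The hairpins of 3 detected members show what 1 count could cover, with both mature arms in capitals. They lie at chr4:150068454-150068555, chr9:51103562-51103645 and chr13:113037534-113037624.
Mir34a: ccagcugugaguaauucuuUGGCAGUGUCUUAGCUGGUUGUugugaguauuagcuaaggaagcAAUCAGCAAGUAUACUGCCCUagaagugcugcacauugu
Mir34b: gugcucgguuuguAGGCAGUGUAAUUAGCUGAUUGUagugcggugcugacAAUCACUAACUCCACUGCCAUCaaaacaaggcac
Mir449a: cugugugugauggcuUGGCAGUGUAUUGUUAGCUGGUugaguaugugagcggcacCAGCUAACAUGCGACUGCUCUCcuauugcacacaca

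Each mature form occurred whole in 1 hairpin of the 1005 in the table, its own. The closest match between genes was that of miR-34b-5p in the Mir34c hairpin, with 2 mismatches over 23 bases. The next were miR-449c-5p in the Mir449a hairpin with 3 mismatches over 21 bases, and miR-449a-5p in the Mir449c hairpin with 4 over 22. How the aligner treated mismatches is not given in the sources used here, so the division of reads between Mir34b and Mir34c is uncertain. Matches to Mir449b and of miR-34c-5p were not analysed here. The longest exact run that a member hairpin shared with any other hairpin was 11 bases for Mir34a, Mir34b, Mir34c and Mir449c and 14 bases for Mir449a.

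Predicted folding energy per base was lower for each detected member than for Mir449c, but only slightly so for Mir34b and Mir34c. RNAfold gave minimum free energies per base of -0.42 kcal/mol for the Mir34a hairpin, -0.39 for Mir34b, -0.39 for Mir34c, -0.49 for Mir449a and -0.38 for Mir449c, and the median over the 1005 hairpins was -0.41.

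The members lie at 3 loci (GENCODE M21, mm10, counted from 1). Mir34a (ENSMUSG00000065493.1) is at chromosome 4, 150068454 to 150068555. Its last 17 bases overlap an exon of Gm37795, a same-strand gene of type TEC in the annotation, and the nearest protein-coding gene is Gpr157, 18810 bases away. Mir34c (ENSMUSG00000065587.1), at chromosome 9, 51103034 to 51103110, and Mir34b (ENSMUSG00000065492.1), at 51103562 to 51103645, lie on the minus strand with 451 bases between them. They are known to be made from 1 primary transcript. In 1 of 5 annotated transcripts of Btg4, a gene on the opposite strand, both fall within an intron. Mir449c (ENSMUSG00000076146.1, chromosome 13, 113035983 to 113036091), Mir449b (ENSMUSG00000078027.1, 113037419 to 113037498) and Mir449a (ENSMUSG00000065575.1, 113037534 to 113037624) span 1642 bases in an intron of Cdc20b on the same strand, in all 5 of its transcripts.

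The libraries held 3961630 (replicate 1) and 1686822 (replicate 2) counts on the sense strand of miRNA genes, and levels are given as these counts scaled to 1000000 per library (CPM). A read covers a mature miRNA whole, so CPM was not divided by gene length. A count of 0 allowed up to 3 counts, or 0.757 CPM in replicate 1 and 1.78 CPM in replicate 2. Exact Poisson 95% intervals and these limits cover counting error only, since reads without molecular identifiers are not independent molecules, and so do the exact tests on reads given below. The libraries themselves differed by more than counting error, with a biological coefficient of variation of 0.396 (edgeR's common dispersion over the 340 detected genes). Reads listed apart from the genes as multimapping were 27.0% and 25.7% of all reads. For the tissue label, the neuroendocrine miRNA Mir375 stood at 31129 and 42377 CPM and Mir202, a miRNA of gonads and adrenal cortex, at 54.0 and 75.9 CPM. Markers of other tissues were also present, and they are given with the lists further on.

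Mir34c had the most reads of the members in both libraries, and 4 of the 6 members were detected, meaning at least 10 counts in each library. Together the 6 genes had 3359 and 3751 counts in replicates 1 and 2. This was 848 and 2224 CPM, or 0.0848% and 0.222% of the miRNA counts, with a mean of 1536 ± 973 CPM (SD, n = 2). Mir34a, Mir34b and Mir34c gave 798 and 2175 CPM of this, and Mir449a, Mir449b and Mir449c gave 50.0 and 48.6 CPM. The first group thus carried nearly all of the family signal. For the locus of the second group the ratio of replicate 2 over replicate 1 was 0.973 (95% exact interval 0.743 to 1.26).

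The reads assigned to Mir34c numbered 2288 and 3215 in replicates 1 and 2. Its levels were 578 CPM (95% interval 554 to 602) and 1906 CPM (1841 to 1973), a mean of 1242 ± 939 (SD, n = 2). It ranked 115th of the 2202 genes in replicate 1 and 61st in replicate 2, with 757 of them counted in at least 1 library. The level in replicate 2 was well above that in replicate 1, with intervals far apart.

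Mir34a, the member most closely tied to p53, had 600 and 315 counts. Its levels were 151 CPM (140 to 164) and 187 CPM (167 to 209), a mean of 169 ± 25.0 (SD, n = 2). It ranked 190th and 177th, and its intervals did not overlap by a small margin.

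Mir34b, the neighbour of Mir34c, had 273 and 139 counts. Its levels were 68.9 CPM (61.0 to 77.6) and 82.4 CPM (69.3 to 97.3), a mean of 75.7 ± 9.54 (SD, n = 2). The intervals of the 2 libraries overlapped. On the strand opposite to Mir34b there were 2 counts and 1 count, and the opposite strand of every other member had none.

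Mir449a had 197 and 81 counts. Its levels were 49.7 CPM (43.0 to 57.2) and 48.0 CPM (38.1 to 59.7), a mean of 48.9 ± 1.21 (SD, n = 2), and the intervals of the 2 libraries overlapped.

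The other genes of the Cdc20b intron were not detected. Mir449c had 1 count in each library, which is under the limit that a count of 0 allows, and Mir449b had 0 in both. The counts of Mir449a exceeded those of Mir449c by a ratio of 197 in replicate 1 (exact interval 34.9 to 7820) and 81 in replicate 2 (14.1 to 3238). The counts of Mir449a were 65.7-fold the 3-count limit of Mir449b in replicate 1 and 27.0-fold in replicate 2, with no interval taken on Mir449a.

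**Figure D1:**
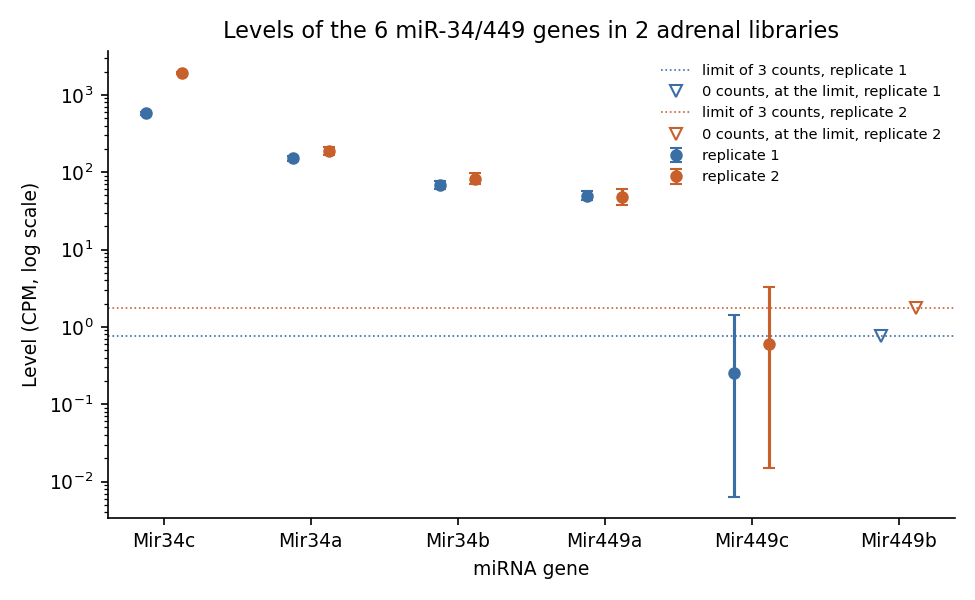
Level of each member in CPM (log scale) in replicate 1 (blue) and replicate 2 (orange), with exact Poisson 95% intervals. Mir34c stands highest at 578 and 1906 CPM, 3 members lie between 48.0 and 187 CPM, and Mir449c and Mir449b lie at or under the 3-count limits (dotted lines; open triangles mark 0 counts drawn at the limit).

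The order was Mir34c, Mir34a, Mir34b, Mir449a, Mir449c, Mir449b in both libraries. Each of the first 4 was apart from the next, with intervals that did not overlap in either library and ranges over the libraries that did not overlap. The narrowest of these steps was from Mir34b to Mir449a, at count ratios of 1.39 and 1.72. The step from Mir34a to Mir34b was 2.20 and 2.27, and that from Mir34c to Mir34a was 3.81 and 10.2. Mir449c and Mir449b were not told apart at this depth. With 2 libraries of 1 group no permutation test of the order was possible. The order is one of reads, and how well reads of different miRNAs reflect their amounts was not tested.

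The make-up of the family's counts differed between the 2 libraries by more than counting error. Mir34c held 68.1% of the family's counts in replicate 1 (exact Clopper-Pearson 95% interval 66.5 to 69.7%) and 85.7% in replicate 2 (84.5 to 86.8%), a mean of 76.9% ± 12.4 (SD, n = 2). Mir34a fell from 17.9% to 8.40%, Mir34b from 8.13% to 3.71% and Mir449a from 5.86% to 2.16%. On the reads of these 2 libraries, each of these 4 differences passed a two-sided Fisher's exact test after Benjamini-Hochberg adjustment over the 4 members, with adjusted p of 3.52e-70 for Mir34c and 1.58e-15 or smaller for the others. Shares within 1 family are tied to one another, so a gain of Mir34c alone lowers the rest.

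Among the members other than Mir34c the make-up was closer. Mir34a held 56.0% of these counts in replicate 1 and 58.8% in replicate 2, with an odds ratio of 1.12 (exact interval 0.902 to 1.39). Mir34b held 25.5% and 25.9% (odds ratio 1.02, 0.801 to 1.30), and Mir449a held 18.4% and 15.1% (0.790, 0.588 to 1.06). None of these 3 passed the exact test (adjusted p 0.323 to 0.856). Equality is not shown, since differences within these intervals could not be detected at this depth. In CPM the members other than Mir34c summed to 270 and 318, a ratio of 1.18 (exact interval 1.06 to 1.31). The ratio was 1.09 (0.982 to 1.21) with TMM library sizes (trimmed mean of M-values) and turned to 0.898 (0.808 to 0.998) with all reads as the library size.

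**Figure D2:**
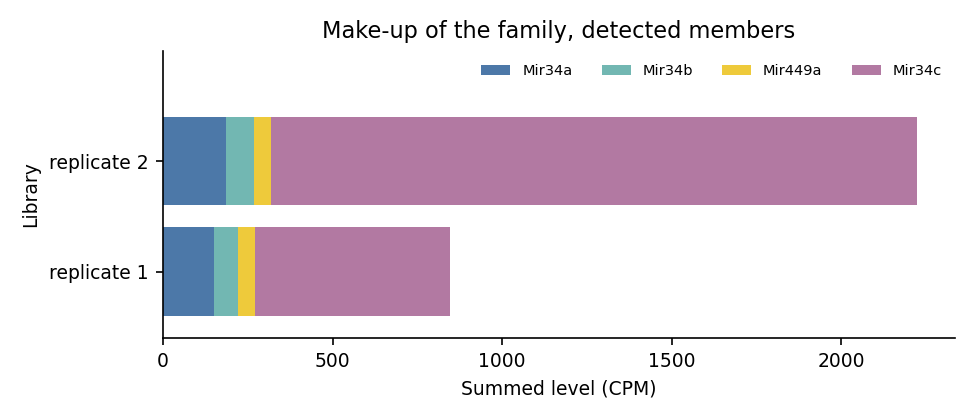
Summed level of the 4 detected members in CPM in each library, stacked by gene. The segments of Mir34a, Mir34b and Mir449a sum to similar lengths in both bars, and the Mir34c segment is 578 CPM in replicate 1 and 1906 CPM in replicate 2.

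Against all miRNA genes, Mir34c was the one member called different between the libraries. The call needed an adjusted p under 0.05 in a two-sided exact binomial test of the counts against the ratio of library totals, and a log2 ratio of replicate 2 over replicate 1, on CPM + 0.5, above 1 or below -1. It compares 2 libraries, not conditions. The genes tested were the 404 for which at least 1 library reached 10 counts, and 18.3% of them were called, 9.65% higher (39 genes) and 8.66% lower (35 genes) in replicate 2. With all reads as the library size the split was 19 higher and 63 lower. Of the family, 4 members had enough counts to be tested and 1 was called, a count too small to set apart from the background share.

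For Mir34c the level in replicate 2 was 3.30 times that in replicate 1 (3.13 to 3.48 by the exact interval), a log2 ratio of 1.72, with an adjusted p below 1e-300 in the exact test. Without regard to direction, its log2 ratio ranked 33rd in size among the 404 tested genes. Toward replicate 2, 13 of them had a larger log2 ratio. Among the 210 tested genes with a mean of at least 100 CPM there were 6: Mir122, Mir26a-1, Mir31, Mir298, mmu-mir-3535 and Mir192. Mir122 is the main miRNA of hepatocytes, and Mir31 and Mir192 are best known from epithelia. Other markers did not all move this way. Of the 8 genes on the epithelial list given further on, 1 (Mir31) was called higher, 2 lower and 5 were not called. On the kidney list, which holds Mir192, 2 were called higher, 2 lower and 1 was not called.

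Mir34a had a ratio of 1.23 (exact interval 1.07 to 1.42), a log2 ratio of 0.30. Its adjusted p was 0.00573 in the exact binomial test, but the difference was under the size threshold, and 62.1% of tested genes had an adjusted p under 0.05 at any size. The p depended on scaling, with 0.0850 under TMM library sizes. With all reads as the library size the direction turned, to a log2 ratio of -0.085.

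Mir34b had a ratio of 1.20 (0.968 to 1.47), a log2 ratio of 0.26 that turned to -0.13 with all reads as the library size, and Mir449a had 0.966 (0.736 to 1.26), a log2 ratio of -0.05. Neither passed the exact binomial test (adjusted p 0.140 and 0.900). With all reads as the library size Mir449a was at -0.42, with an adjusted p of 0.0317 in the exact test, also under the size threshold. The median log2 ratio of the 4 members was 0.28, against -0.05 over all tested genes.

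**Figure D3:**
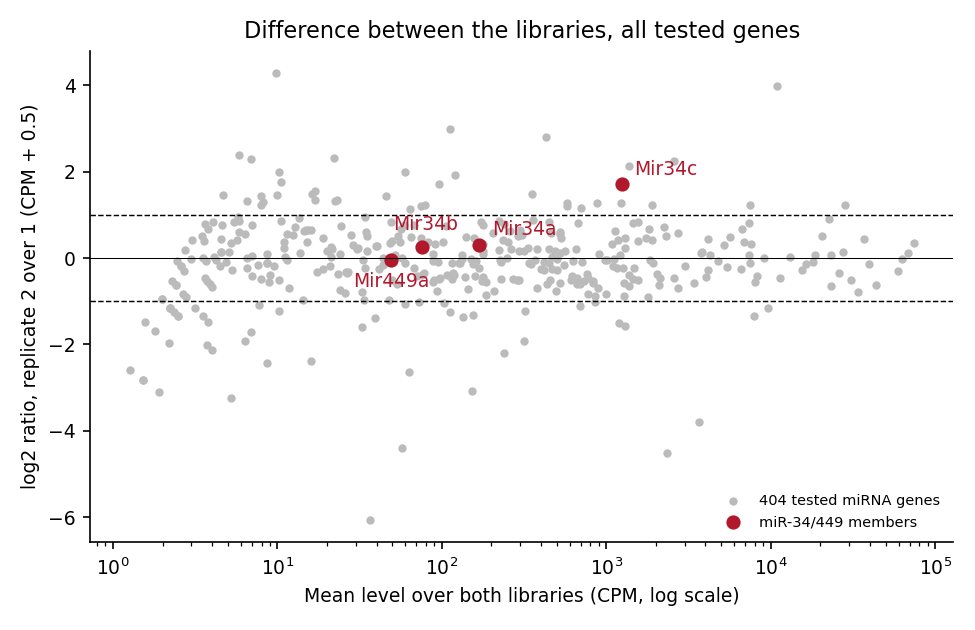
Log2 ratio of replicate 2 over replicate 1 (CPM + 0.5) against mean level in CPM (log scale) for the 404 tested miRNA genes (grey), with the 4 tested members in red and dashed lines at 1 and -1. Mir34c lies above the upper line at 1.72, and Mir34a, Mir34b and Mir449a lie between the lines.

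Mir34b and Mir34c are made from the same primary transcript, but their counts were unequal and their ratio differed between the libraries. Mir34c had 8.38 counts for each count of Mir34b in replicate 1 (exact interval 7.39 to 9.54) and 23.1 in replicate 2 (19.5 to 27.6). The change was 2.76-fold, or 1.46 on the log2 scale, with p = 3.03e-22 in a two-sided Fisher's exact test on the reads of these 2 libraries. This ratio does not depend on how the libraries were scaled.

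Other pairs of neighbouring miRNA genes gave a background for this change. There were 65 pairs of adjacent genes on 1 strand with starts within 1000 bases and at least 10 counts for each gene in both libraries. Mir34b with Mir34c is counted among the 65, and 64 are other pairs. Over all 65, the ratio changed between the libraries by a median of 0.46 on the log2 scale, without regard to sign. The change of Mir34b and Mir34c was the 10th largest of the 65, and 15 pairs (23.1%) changed by more than 1. The change was thus among the larger ones without standing alone. Nearest in size were Mir450-1 with Mir450-2 (1.49), Mir3070a with Mir3070b (1.43) and the red-cell genes Mir144 and Mir451a (1.59). Mir450-1 and Mir450-2 are near-copies that give the same 5p form, so the division of reads between them is uncertain. In level, the mean log2 ratio of 3.80 within the Mir34b and Mir34c pair compared with a median of 2.06, and 16 pairs were more unequal.

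**Figure D4:**
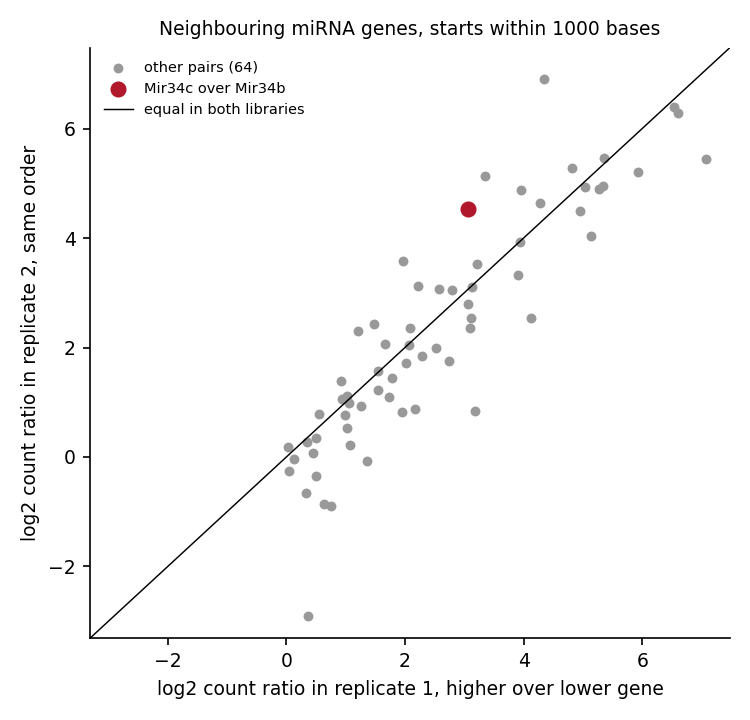
Log2 count ratio within each of 65 pairs of neighbouring miRNA genes in replicate 1 (horizontal) and replicate 2 (vertical), higher over lower gene in replicate 1. The line marks equal ratios, and the pair of Mir34c over Mir34b (red) lies above it at 3.07 and 4.53.

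By a rule on level, the genes most like each detected member were the 3 with the smallest distance, taken as the larger of the 2 differences in log2(CPM + 0.5), over 2 libraries and 561 other genes with at least 1 count in each. For Mir34c these were mmu-mir-3535 (distance 0.23, with 510 and 2228 CPM), Mir455 (0.31, with 716 and 1734 CPM) and Mir101b (0.63, with 893 and 1370 CPM). For Mir34a they were Mir669o (0.08), Mir339 (0.15) and Snord43 (0.18), the last a gene named for a small nucleolar RNA and annotated as a miRNA. For Mir34b they were Mir135b (0.13), Mir877 (0.17) and Mir677 (0.29), and for Mir449a they were Mir3099 (0.05), Mir199a-2 (0.13) and Mir129-2 (0.17). The distance of Mir101b from Mir34c was the largest of the 12, and 2 libraries allow no more than this description.

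The seed letters also occurred elsewhere in hairpins outside the family. GGCAGUG occurred somewhere in 17 of 1005 hairpins (1.69%), read on the transcript strand, among them all 5 member hairpins in the table. Of the 12 others, Mirlet7b of the let-7 family was at 18019 and 18895 CPM, and Gm23450 was at 20.7 and 17.2 CPM. The remaining 10 had at most 11 counts in either library. In none of the 12 did an annotated mature form carry these letters at bases 2 to 8.

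The list of other miRNAs linked to p53 had 12 genes in the tables, of which 8 also stand in the cell-type lists given next. All 12 were tested, 3 were called higher in replicate 2, 3 lower and 6 were not called, where 9.65% of all tested genes were called higher and 8.66% lower. The list had a median log2 ratio of -0.32 beside -0.05 over all tested genes. Those higher were Mir107 (510 and 1233 CPM), which lies in a pantothenate kinase gene, Mir192 (49.7 and 190 CPM) and Mir194-2 (24.0 and 96.0 CPM). Those lower were Mir200c (158 and 65.8 CPM), Mir194-1 (39 counts and 1 count) and Mir215 (287 counts and 1 count). Mir194-1 and Mir194-2 are near-copies, so the division of reads between them is uncertain. They moved in opposite directions, each in that of the gene beside it, Mir215 for Mir194-1 and Mir192 for Mir194-2. The highest of the list were Mir143 (41567 and 37940 CPM) and Mir22 (5357 and 9395 CPM), and neither was called. The list summed to 51769 and 52732 CPM.

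For the cell types in which the family is best known, other markers allow little to be said. Of the 17 miRNA genes of the X-linked cluster expressed in male germ cells, 12 had 0 counts in both libraries and none was detected. They summed to 2 counts in replicate 1 and 5 in replicate 2. Reads shared by copies such as Mir465b-1 and Mir465b-2, both at 0 counts, can be listed apart as multimapping. Their counts therefore do not show absence. Over all 2202 genes, 1445 had 0 counts in both libraries and 340 were detected, so 0 counts were common outside this list too. No list of ciliated-cell miRNAs apart from the family was used, so those cells had no independent marker here. In whole tissue, fewer cells of a type and less RNA per cell cannot be told apart.

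Several lists for other tissues, and the list linked to the adrenal cortex of the sampled gland, had sums that differed between the libraries. In replicates 1 and 2, the hepatocyte miRNA Mir122 stood at 1299 and 20602 CPM. Of the 9 striated muscle genes 3 were detected and 1 was at 0 in both libraries. The list summed to 1143 and 2697 CPM, nearly all from Mir206 (1130 and 2646 CPM), and Mir206, Mir208b and Mir499 were called higher. Reads shared by the copies Mir1a-1 and Mir1a-2, or Mir133a-1 and Mir133a-2, can be listed apart as multimapping. The low counts of these copies therefore do not show absence. The 3 erythroid genes summed to 7248 and 595 CPM, with Mir451a and Mir144 called lower and Mir486 not called (12.4 and 19.6 CPM). The 4 genes linked to the adrenal cortex summed to 17526 and 40644 CPM, nearly all from Mir21a (17010 and 39571 CPM). Of these, Mir21a and Mir132 were called higher, and Mir202 (54.0 and 75.9 CPM) and Mir212 were not called. The part of these differences in that of Mir34c was not tested.

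The sums of the remaining lists were closer, though single genes in them moved far in opposite directions. Neuroendocrine miRNAs, all 7 detected, summed to 36907 and 47026 CPM, led by Mir375 and Mir7b, with Mir182 and Mir7-2 called lower. Neuronal miRNAs, 6 of 14 detected and 2 at 0 in both libraries, summed to 1392 and 982 CPM, led by Mir137 and Mir218-2. Of these, Mir128-2 was called higher and Mir153 (log2 ratio -4.39) and Mir218-1 lower. The neuronal list holds copies, namely those of Mir124a, Mir9, Mir128, Mir218 and Mir129. Reads shared by copies can be listed as multimapping, so the levels of these genes, the list's sum and its number detected are uncertain. The same holds for the levels of Mir7-1 and Mir7-2. Of the 8 epithelial genes, which summed to 1426 and 1691 CPM, Mir31 (108 and 755 CPM) was called higher and Mir200b (272 and 32.0 CPM) and Mir200c lower, and Mir203, the highest, was not called. The 5 kidney genes summed to 241 and 379 CPM and were, besides Mir204, also on the p53-linked list, with Mir192 and Mir194-2 called higher and Mir194-1 and Mir215 (log2 ratio -6.06) lower. The 4 leukocyte genes summed to 858 and 1338 CPM, led by Mir142 and Mir223, with Mir223 called higher. The endothelial genes Mir126a and Mir126b summed to 65225 and 83398 CPM, and 5 genes of smooth muscle and stroma, led by Mir143 and Mir214, to 44515 and 41751 CPM, and no gene of these lists was called.

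**Figure D5:**
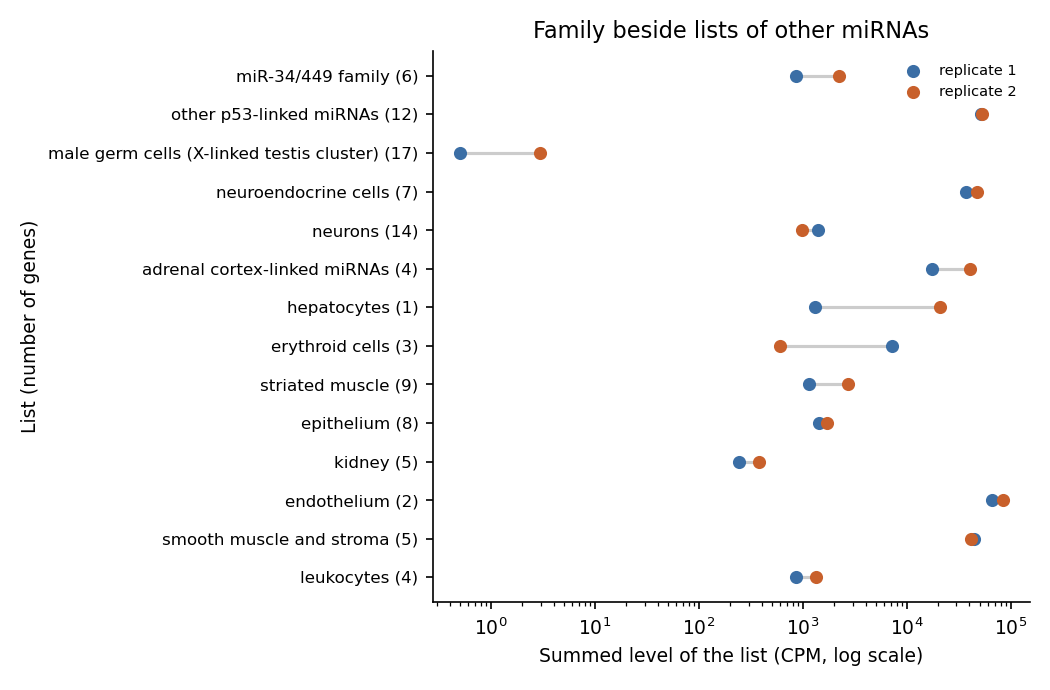
Summed level in CPM (log scale) of the family and of 13 lists of other miRNAs in replicate 1 (blue) and replicate 2 (orange), with the number of genes in brackets. The family lies at 848 and 2224 CPM, and the germ-cell list lies lowest at 0.505 and 2.96 CPM.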

How the data were processed

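The deposited tables, 1 per library, held read counts of miRNA genes as whole numbers, made on mm10 with annotation M21 per the deposited file lists. The aligner, trimming and read filters are not given in the sources used here. Of 3 count columns, 1 covered both strands, and the sense-strand column was used. Its 4 summary rows, which name no gene, were left out of the totals; reads not on the sense strand of a miRNA gene made up 66.3% of replicate 1 (of 11770895 reads) and 74.3% of replicate 2 (of 6557080).

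All identifiers matched GENCODE M21. The members and lists were chosen with earlier results of these data known, as were the tests and thresholds. Genes named were the members, the 3 genes nearest to each in level, the 2 highest and all called genes of each list, genes sharing a member's seed, host genes and the pairs nearest in change; the genes above Mir34c in ratio, other genes with its seed letters, Mir202 and Mir212 were named after their values were seen. With 1 group, edgeR's replicated test could not be used. The exact binomial test was tested on simulated data that held counting error only, so it does not cover the spread between samples. Python 3.11.15, scipy 1.17.1, edgeR 4.0.16 (TMM), DESeq2 1.42.0 (size factors) and RNAfold 2.7.2 were used. Alternatives covered the strand column, scaling, the added CPM, the count minimum, the size threshold and each library left out.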

Additional observations from a re-analysis of the deposited data

How the results depend on the processing

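TMM and DESeq2 scaling over all genes shifted log2 ratios by -0.107, and TMM over the tested genes, chosen after the data had been seen, by 0.02. Under every scaling, strand column, added CPM, minimum and threshold tried, Mir34c stayed called, with log2 ratios from 1.33 (all reads as the library size) to 1.74. With all reads as the library size, Mir34a turned to -0.085 and Mir34b to -0.13, neither past the test, and mean levels were 429 CPM for the family, 49.5 for Mir34a, 22.2 for Mir34b and 14.5 for Mir449a; this denominator is larger by construction. In the either-strand column Mir34b was at 87.1 and Mir449a at 55.8 CPM, over smaller totals of 3483881 and 1470932 counts. The counts of Mir449a were the same in both columns. Without Mir34c, also chosen after the data had been seen, the family was at 294 CPM, and its ratio between the libraries, with scalings also chosen then, turned from 1.18 to 0.898 with all reads as the library size. At any size 2 members and 251 genes were called, and 132 genes at a log2 ratio over 0.58, against 74. With either library left out, levels ranged from 848 to 2224 CPM for the family, 151 to 187 for Mir34a, 68.9 to 82.4 for Mir34b, 578 to 1906 for Mir34c and 48.0 to 49.7 for Mir449a, and the ratio of Mir34c to Mir34b from 8.38 to 23.1; with 2 libraries this cannot show stability. No paired analysis was possible because there was 1 group. Replicate 2 had fewer counts, so Mir449b and Mir449c were limited most there.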
